A study of Mus musculus with 6 samples.

Results

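Genes of the insulin-like growth factor (IGF) system were examined in 3D cultures of D2A1 cells that received either recombinant SLURP1 (rSLURP1) or a control protein, recombinant GST (rGST). The 10 genes were the ligands Igf1 and Igf2, the receptors Igf1r and Igf2r, and the binding proteins Igfbp2, Igfbp3, Igfbp4, Igfbp5, Igfbp6 and Igfbp7. They were taken by gene name from a table of 54146 genes, and each name matched 1 row. D2A1 is a mouse mammary tumor cell line, and SLURP1 is a secreted protein of the Ly6/uPAR family. The cells were grown in 3D Matrigel culture in DMEM with 10% FBS, each protein was given at 50 nM, and the cells were harvested on day 5, with 3 RNAseq libraries for each treatment. All libraries came from 1 cell line, and the labels do not say whether the libraries of a treatment came from separate cultures, so p-values measure the spread between these libraries, which may be technical. The serum in the medium and the Matrigel can themselves carry growth factors, which RNAseq of the cells does not measure. The design asked which genes differ between rSLURP1 and the control.

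IGF1 and IGF2 are secreted peptides that activate the IGF1 receptor, a tyrosine kinase that signals through IRS adaptors to PI3K, AKT and mTOR and supports growth and survival of mammary tumor cells. The IGF2 receptor has no kinase: it is the cation-independent mannose 6-phosphate receptor, which takes up IGF2 for degradation and sorts lysosomal enzymes. The IGF binding proteins (IGFBPs) hold IGFs in the extracellular space, where they limit or prolong access to the receptor, and proteases that cut them release the ligand.

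Levels are given as TPM, a unit that corrects for transcript length and scales every library to the same total, so levels of different genes can be compared within a library. TPM keeps no read depth, and the counting error of low values is unknown. Differences were tested with limma on log2(TPM + 1), a scale that understates the change of low genes, for the 12301 genes that reached 1 TPM in 3 or more libraries. Of all tested genes, 67.2% had an adjusted p of 0.05 or less, 58.5% toward lower and 8.66% toward higher expression with rSLURP1, and the median log2 fold change was -0.33. After median-ratio scaling, which sets the typical gene level of the libraries equal, the median was 0.01, 51.2% of genes were called, 24.6% lower and 26.6% higher, so that lower genes made up 48.1% of the calls in place of 87.1%. In all rGST libraries more genes reached 1 TPM (12390 to 12449) than in any rSLURP1 library (11906 to 11981). Because the split of calls depends on the scaling, the IGF genes are given under both. For a single gene in 3 against 3 libraries, no two-sided exact permutation p can fall below 0.1.

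The promoters of Igfbp4 and Igfbp6 are shown because these binding proteins moved in opposite directions. They are the 250 bases before the RefSeq start (GRCm38.p6), both on the plus strand, 5′ to 3′. Capitals mark TATAAA and CCCCACCC on either strand.
Igfbp4, chr11:99040994-99041243: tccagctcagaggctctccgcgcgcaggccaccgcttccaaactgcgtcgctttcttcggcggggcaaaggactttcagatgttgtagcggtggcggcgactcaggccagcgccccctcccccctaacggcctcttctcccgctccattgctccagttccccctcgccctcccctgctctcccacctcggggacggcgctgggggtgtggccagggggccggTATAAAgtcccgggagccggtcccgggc
Igfbp6, chr15:102143936-102144185: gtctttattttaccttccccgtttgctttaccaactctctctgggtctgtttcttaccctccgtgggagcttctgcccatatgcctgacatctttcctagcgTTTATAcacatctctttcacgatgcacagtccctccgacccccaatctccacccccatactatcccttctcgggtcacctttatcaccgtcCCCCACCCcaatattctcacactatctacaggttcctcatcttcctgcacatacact

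The 2 windows differed in base composition. The Igfbp4 window was 69.2% G and C and held TATAAA, the TATA box, 28 bases before the start. The Igfbp6 window was 49.6% G and C, with 1 match to CCCCACCC, a motif of Kruppel-like factors, 57 bases before the start. The last C of that match is the first letter of a CCAAT box. Igfbp6 also held TATAAA on the minus strand, 148 bases before the start. Of 32851 mouse promoter windows of this length, 12.4% held TATAAA and 9.05% held CCCCACCC on either strand. Among the IGF genes CCCCACCC was also found in windows of Igf2, Igfbp3 and Igfbp5, which lay below a TPM of 1 in every library. GGGCGG, the GC box, was found in 32.7% of all windows and in neither of these 2. It was found at 2 places in the window of Igf1r, 3 in that of Igf2r and 4 in that of Igfbp7. Windows of Igf2 and Igfbp2 held it too. A match describes the letters only, and no binding was measured here. The GENCODE start of Igfbp6, at 102144362 on chromosome 15, lies downstream of the RefSeq start, so the distances given for Igfbp6 are longer from it. The Igfbp4 window ends directly before its GENCODE start, at 99041244. The window of Igf1 overlapped an exon of its other transcripts and is not printed.

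Igfbp4 stood far above the rest, the receptors Igf2r and Igf1r followed, Igf1, Igfbp7 and Igfbp6 were low, and Igf2, Igfbp2, Igfbp3 and Igfbp5 lay below a TPM of 1 in every library. In rGST libraries the mean TPM fell in the order Igfbp4 (3099), Igf2r (33.3), Igf1r (13.9), Igf1 (9.56), Igfbp7 (6.88), Igfbp6 (2.33) and Igf2 (0.547). Only the neighbors Igf1 and Igfbp7 overlapped between libraries in that order. In rSLURP1 libraries the order was Igfbp4 (1455), Igf2r (29.4), Igf1r (9.49), Igfbp7 (7.02) and Igfbp6 (4.52), with no overlap between neighbors, and Igf1 came sixth at 0.173. The 4 genes below 1 TPM were not tested, and 6 of the 10 passed the filter. Of these 6, Igf1, Igf1r, Igf2r and Igfbp4 were lower and Igfbp6 was higher with rSLURP1, whereas Igfbp7 did not pass the test. With 67.2% of all tested genes called, and with Igf1 passing the filter only through its rGST libraries, this count is not read as a result about the IGF genes. The libraries of the 2 treatments did not overlap for Igf1, Igf2, Igf1r, Igf2r and Igfbp4, all lower, and for Igfbp6, which was higher. Among all tested genes 71.4% did not overlap, 61.7% lower and 9.75% higher. The size of each change is therefore given beside that of all tested genes. Igf1 and Igfbp4 were past a 2-fold fall, as were 7.06% of tested genes, and no member was past a 2-fold rise, as were 1.15%. With median-ratio scaling Igf1 was past a 2-fold fall (3.74% of tested genes) and Igfbp6 past a 2-fold rise (2.56%).

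**Figure D1:**
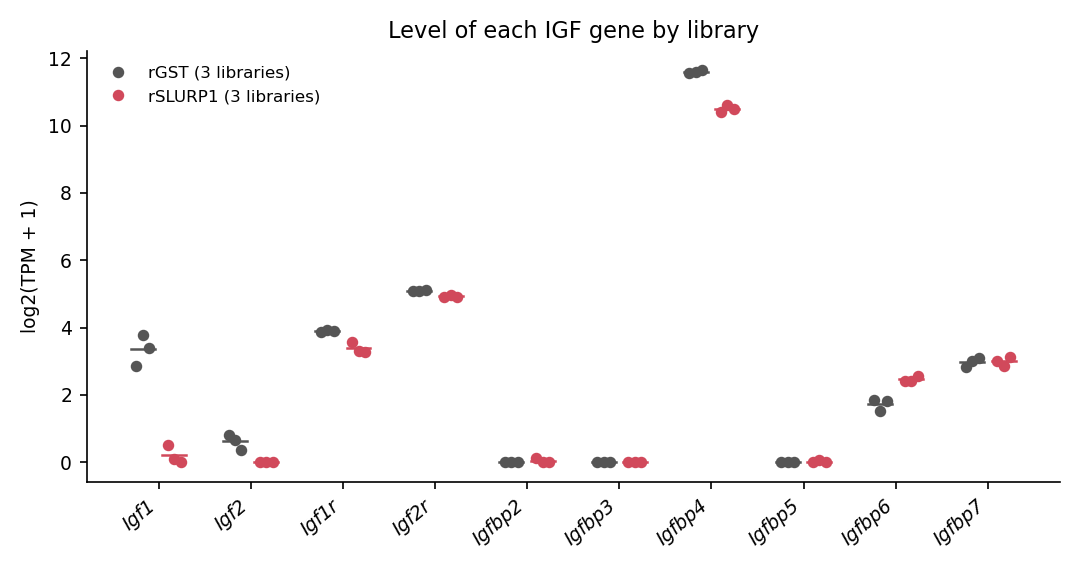
Levels of the 10 IGF genes as log2(TPM + 1) in the 3 rGST and the 3 rSLURP1 libraries, 1 point per library with the mean as a line. Igfbp4 is the highest gene in every library, Igf1 drops close to 0 with rSLURP1, and Igfbp2, Igfbp3 and Igfbp5 lie at or near 0 in both treatments.

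Igf1 (ENSMUSG00000020053.18; GRCm38 chromosome 10, 87858265 to 87937042, plus strand), which encodes the main activating ligand of IGF1R, showed the largest fall of the 6 tested genes under both scalings. Its TPM was 6.33, 12.8 and 9.56 in rGST replicates 1, 2 and 3, and 0.43, 0.08 and 0.01 in rSLURP1 replicates 1, 2 and 3. Every rSLURP1 library lay below every rGST library, and the rSLURP1 values were near the lower end of what the table lists.
The mean was 9.56 ± 3.24 in rGST and 0.173 ± 0.225 in rSLURP1 libraries (SD, n = 3 each), or 1.81% of the rGST mean. The log2 fold change was -3.14 (SE 0.25, limma adjusted p = 3.34e-05), and -2.95 with median-ratio scaling (adjusted p = 8.19e-05). Its size depends on the pseudocount and was -5.41 with 0.1 in place of 1 (adjusted p = 1.45e-04 in limma). Igf1 passed the filter on low values only through its rGST libraries, so a difference was built into its selection for the test. Igf1os, which overlaps Igf1 on the opposite strand, was listed at 0.07 TPM or less.

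Igf2 (ENSMUSG00000048583.16; chromosome 7, 142650766 to 142666816, minus strand), the other ligand, is an imprinted fetal growth factor. Its TPM was 0.76, 0.58 and 0.3 in rGST replicates 1, 2 and 3, and it was listed at 0 in all 3 rSLURP1 libraries. The groups did not overlap, but no rGST library reached a TPM of 1, and no fold is given against a group listed at 0. Without the filter Igf2 had a difference of -0.62 on the log2(TPM + 1) scale (adjusted p = 0.00801 in limma). H19, the imprinted neighbor of Igf2, was listed at 0 in all 6 libraries. Of 16 imprinted growth genes, 2 passed the filter: Gnas was lower (log2 fold change -0.24, adjusted p = 0.00122 in limma; called higher at 0.13 with median-ratio scaling) and Peg3 had -0.37 (adjusted p = 0.0878). Grb10, an imprinted adaptor that binds IGF1R, had a TPM of at most 0.01 in any library.

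Igf1r (ENSMUSG00000005533.10; chromosome 7, 67952827 to 68233668, plus strand) was lower in the TPM as deposited but was not called with median-ratio scaling. Its TPM was 13.66, 14.15 and 13.83 in rGST replicates 1, 2 and 3 and 10.94, 8.79 and 8.73 in rSLURP1 replicates 1, 2 and 3. The groups did not overlap, and rSLURP1 replicate 1 lay nearest to the rGST libraries. The mean fell from 13.9 ± 0.249 to 9.49 ± 1.26 TPM (SD, n = 3 each), which is -0.51 on the log2 scale (SE 0.097, limma adjusted p = 0.00235). Relative to the median of all tested genes this is -0.19, and with median-ratio scaling it was -0.18 (95% interval -0.42 to 0.062, adjusted p = 0.185 in limma), so the call did not hold.

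Igf2r (ENSMUSG00000023830.13; chromosome 17, 12682406 to 12769664, minus strand) varied little between libraries. Its TPM was 33.1, 33.2 and 33.61 in rGST replicates 1, 2 and 3 and 28.89, 30.15 and 29.05 in rSLURP1 replicates 1, 2 and 3. All rSLURP1 libraries were lower, and the mean was 33.3 ± 0.270 in rGST and 29.4 ± 0.686 in rSLURP1 libraries (SD, n = 3 each), 88.2% of the rGST mean. The log2 fold change was -0.18 (SE 0.048, limma adjusted p = 0.0135), and it turned to 0.18 (adjusted p = 0.0114) with median-ratio scaling, so the direction follows from the scaling. Airn, the antisense transcript that overlaps Igf2r, was listed at 0.41 TPM or less in every library.

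A ratio of 2 genes within a library does not depend on its scaling. The ratio of Igf2r to Igf1r was 2.35 to 2.43 in rGST libraries and 2.64 to 3.43 in rSLURP1 libraries, without overlap. The receptors thus changed unequally, with the ratio higher in all 3 rSLURP1 libraries and, of these, lowest in replicate 1. How often the ratio of any 2 genes separates the treatments was not tested.

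Igfbp4 (ENSMUSG00000017493.12; chromosome 11, 99041244 to 99054392, plus strand) encodes a binding protein known mainly for holding IGFs away from their receptor until the protease PAPP-A cuts it. It ranked 28 of all genes by mean TPM with rGST and 118 with rSLURP1. Its TPM was 3048, 3061 and 3188 in rGST replicates 1, 2 and 3, and 1356, 1556 and 1453 in rSLURP1 replicates 1, 2 and 3. Each rSLURP1 library was at about the same level, well below the lowest rGST library. The mean was 3099 ± 77.4 in rGST and 1455 ± 99.9 in rSLURP1 libraries (SD, n = 3 each), 46.9% of the rGST mean. The log2 fold change was -1.09 (95% interval -1.22 to -0.97, adjusted p = 3.86e-06 in limma). It was -0.73 with median-ratio scaling (adjusted p = 1.39e-05), so Igfbp4 was lower under both scalings but short of a 2-fold change with the second. Quantile normalization gave -1.38 (adjusted p = 5.52e-07 in limma), which is past a 2-fold change, so passing that limit depends on the scaling.

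Igfbp6 (ENSMUSG00000023046.6; chromosome 15, 102144362 to 102149511, plus strand), a binding protein that prefers IGF2, was the only one of the 6 tested genes that was called higher as deposited. Its TPM was 2.58, 1.86 and 2.56 in rGST replicates 1, 2 and 3 and 4.3, 4.36 and 4.91 in rSLURP1 replicates 1, 2 and 3. The groups did not overlap, although all values were low. The mean rose from 2.33 ± 0.410 to 4.52 ± 0.336 TPM (SD, n = 3 each), a ratio of means of 1.94. The log2 fold change was 0.73 (SE 0.13, limma adjusted p = 0.00183) and 1.01 with median-ratio scaling (adjusted p = 6.11e-04). Genes called higher made up 8.66% of those tested as deposited and 26.6% with median-ratio scaling.

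Igfbp7 (ENSMUSG00000036256.13; chromosome 5, 77349240 to 77408041, minus strand) encodes a secreted relative of the family with weak affinity for IGFs. Its TPM was 6.11, 6.98 and 7.54 in rGST replicates 1, 2 and 3 and 7.08, 6.25 and 7.73 in rSLURP1 replicates 1, 2 and 3. The groups overlapped, with means of 6.88 ± 0.721 and 7.02 ± 0.742 TPM (SD, n = 3 each), and the log2 fold change was 0.026 (95% interval -0.23 to 0.29, adjusted p = 0.847 in limma). With median-ratio scaling it was 0.34 (adjusted p = 0.0422). Polr2b, a gene on the opposite strand that overlaps Igfbp7, was listed at 55.47 to 62.8 TPM with rGST and 36.59 to 39.22 with rSLURP1. Whether counting used strand is not given in the sources used here, so reads from the shared bases cannot be assigned with certainty.

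The other binding proteins were at or near the bottom of the table. Igfbp3 (ENSMUSG00000020427.11; chromosome 11, 7206086 to 7213923, minus strand), a carrier that is abundant in serum, was listed at 0 in all 6 libraries. Igfbp5 (ENSMUSG00000026185.8; chromosome 1, 72857932 to 72874884, minus strand), known for its rise in the involuting mammary gland, had 0.04 TPM in rSLURP1 replicate 2 and was listed at 0 elsewhere. Igfbp2 (ENSMUSG00000039323.18; chromosome 1, 72824503 to 72852474, plus strand), the neighbor of Igfbp5, had 0.1 TPM in rSLURP1 replicate 1 and was listed at 0 elsewhere. Igfbp1, which is no member of the 10 but completes the classical family, was listed at 0 in all 6. At an unknown depth, these zeros do not show that the transcripts are absent.

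**Figure D2:**
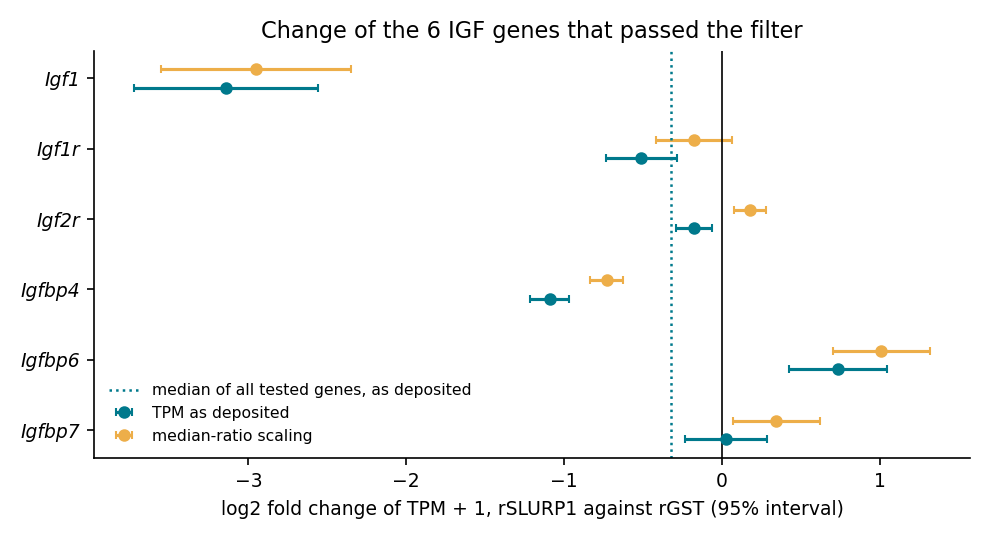
Log2 fold change of TPM + 1, rSLURP1 against rGST, for the 6 IGF genes that passed the filter, with the TPM as deposited and with median-ratio scaling; bars are 95% intervals from limma and the dotted line is the median of all tested genes as deposited (-0.33). Igf1 and Igfbp4 lie below 0 and Igfbp6 above 0 under both scalings, whereas Igf2r changes sign.

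Summed over the 6 binding proteins, the transcript pool was 3057 to 3198 TPM in rGST libraries and 1368 to 1566 TPM in rSLURP1 libraries. Igfbp4 made up 99.7% ± 0.0172 of it in rGST and 99.2% ± 0.0995 in rSLURP1 libraries (SD, n = 3 each). The pool therefore followed Igfbp4, and a higher Igfbp6 left it almost unaltered. The share of Igfbp6 was 0.0750% ± 0.0127 with rGST and 0.309% ± 0.0287 with rSLURP1, and that of Igfbp7 was 0.221% ± 0.0188 and 0.481% ± 0.0715 (SD, n = 3 each). Both shares also rise because the pool, nearly all Igfbp4, was smaller with rSLURP1. The mean TPM of Igfbp7 was 6.88 with rGST and 7.02 with rSLURP1, and that of Igfbp6 was 2.33 and 4.52.

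Ratios within a library showed that the binding proteins changed unequally. Igfbp7 stood at 2.37 to 3.75 times Igfbp6 with rGST and at 1.43 to 1.65 times with rSLURP1, and these ranges did not overlap. As deposited Igfbp7 itself hardly differed, so this ratio mostly restates the rise of Igfbp6. Singly, 71.4% of tested genes did not overlap between treatments, and the share for ratios was not tested. Igfbp4 stood at 216.3 to 230.5 times Igf1r with rGST and at 124.0 to 177.0 times with rSLURP1, the lowest being replicate 1. Igfbp4 was therefore lower relative to Igf1r in every rSLURP1 library, whatever the scaling.

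**Figure D3:**
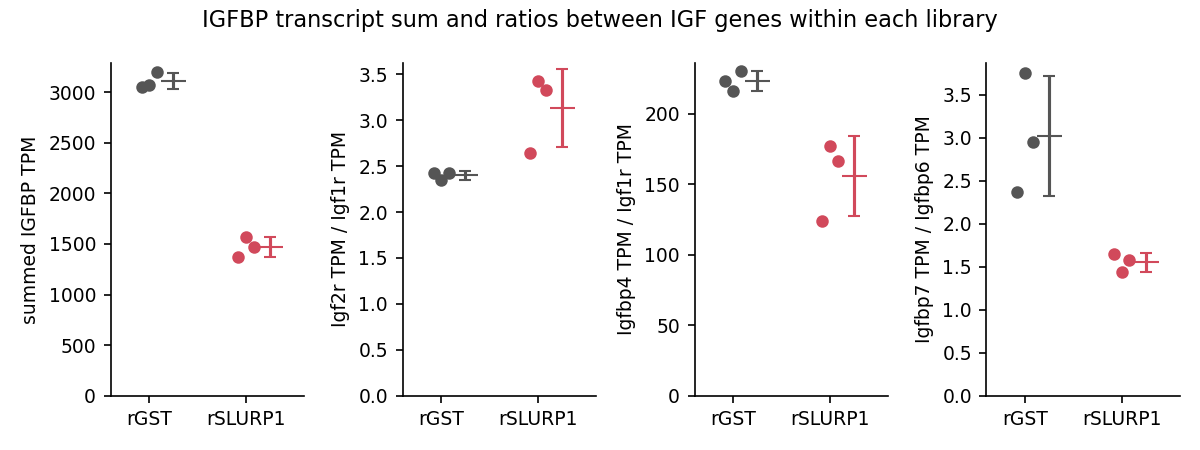
Summed TPM of Igfbp2 to Igfbp7 and 3 ratios of TPM within a library, with 1 point per library and the mean ± SD at the side (n = 3). The sum, the ratio of Igfbp4 to Igf1r and the ratio of Igfbp7 to Igfbp6 are lower, and the ratio of Igf2r to Igf1r is higher, in all rSLURP1 libraries.

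The growth hormone axis, which controls Igf1 transcription in liver and other tissues, was lower at all 6 listed genes. Their median log2 fold change was -0.87 against -0.33 for all tested genes, and 58.5% of those were called lower. With median-ratio scaling 4 of the 6 were called lower, as were 24.6% of tested genes. Ghr, the growth hormone receptor, had 228.6, 209.1 and 222.6 TPM in rGST replicates 1, 2 and 3 and 39.75, 44.17 and 39.91 in rSLURP1 replicates 1, 2 and 3. Its libraries were tightly grouped by treatment, and the log2 fold change was -2.39 (SE 0.057, limma adjusted p = 2.26e-07). Stat5a, a transcription factor downstream of the receptor, had -1.16 (adjusted p = 1.08e-05), and Cish, a STAT5 target and feedback inhibitor, had -0.93 (adjusted p = 4.70e-04 in limma).

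Among other genes of the IGF system, Insr and Igf2bp1 were lower under both scalings. Igf2bp2 had -0.04 as deposited (adjusted p = 0.708) and was called higher with median-ratio scaling, at 0.32 (adjusted p = 0.0139 in limma). Insr, the insulin receptor, which forms hybrids with IGF1R, fell from 30.8 ± 2.04 to 16.5 ± 0.205 TPM (SD, n = 3 each; log2 fold change -0.86, adjusted p = 2.77e-05 in limma). With median-ratio scaling Insr had -0.51 (adjusted p = 4.69e-04), where Igf1r was not called. Igf2bp1, which encodes an RNA-binding protein of Igf2 mRNA, had -0.90 (adjusted p = 8.49e-05 in limma). The other 7 of the 10 listed genes did not pass the filter, and 5 were listed at 0 in every library, the insulin genes Ins1 and Ins2 among them.

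Of 36 genes of IGF1R adaptors and signaling, 34 were tested, 24 were lower, 2 were higher and 8 did not pass the test, where 58.5% of all tested genes were lower and 8.66% higher. Their median log2 fold change of -0.34 stood beside -0.33 for all tested genes. With median-ratio scaling 11 were lower and 10 higher, where all tested genes gave 24.6% and 26.6%. Irs1, the adaptor that links IGF1R to PI3K, had 14.52, 13.79 and 12.14 TPM in rGST replicates 1, 2 and 3 and 2.42, 1.96 and 2.7 in rSLURP1 replicates 1, 2 and 3. The treatments were far apart at every library (log2 fold change -2.11 ± 0.12 SE, limma adjusted p = 7.38e-06; -1.81 with median-ratio scaling). Irs2, its paralog, was at -0.37 (adjusted p = 0.00137), and at -0.03 with median-ratio scaling (adjusted p = 0.748 in limma). Mtor, the growth kinase, had -1.39 (adjusted p = 1.80e-06). Rack1, a scaffold of the ribosome that also binds IGF1R and is listed in the table as Gnb2l1, was higher by 0.72 (adjusted p = 5.15e-06 in limma).

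FOXO factors are switched off by AKT, and 13 of 14 listed FOXO factors and FOXO target genes were tested. Of these, 12 were lower and 1 was higher, with a median log2 fold change of -0.74 against -0.33 for all tested genes, of which 58.5% were lower and 8.66% higher. With median-ratio scaling 10 were lower and 1 higher, where all tested genes gave 24.6% and 26.6%. Pik3ip1, an inhibitor of PI3K, fell from 38.2 ± 4.59 to 9.66 ± 1.28 TPM (SD, n = 3 each), which was -1.88 on the log2 scale (adjusted p = 1.02e-05 in limma). Fbxo32, a ubiquitin ligase, had -0.98 (adjusted p = 1.63e-05), and Bcl6, a transcriptional repressor, had 0.44 (adjusted p = 0.00114 in limma).

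Proteases that cut IGFBPs and the inhibitors of those proteases were split. Of 15 genes, 9 were tested, 6 were lower and 2 higher, and with median-ratio scaling 4 were lower and 3 higher. Their median of -0.32 lay at that of all tested genes (-0.33), of which 58.5% were called lower and 8.66% higher. With median-ratio scaling all tested genes gave 24.6% lower and 26.6% higher. Pappa, the protease known for cutting IGFBP4, was listed at 0 in all 6 libraries, as was its inhibitor Stc1. Pappa2, which cuts other IGFBPs, had 0.15, 0.05 and 0.04 TPM in rGST replicates 1, 2 and 3 and 0.01 in each rSLURP1 library. Stc2, an inhibitor of PAPP-A, rose from 1.49 ± 0.305 to 4.22 ± 0.0777 TPM (SD, n = 3 each; log2 fold change 1.08, adjusted p = 2.78e-04 in limma). Htra1, a secreted serine protease, fell from 231.2 ± 18.4 to 45.7 ± 1.62 TPM (SD, n = 3 each; log2 fold change -2.31, adjusted p = 3.25e-07 in limma). Htra3, its relative, had -2.29 (adjusted p = 9.43e-06) and Plat, the tissue plasminogen activator, had -2.75 (adjusted p = 5.47e-06 in limma).

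Of 13 genes of mannose 6-phosphate sorting, the other work of IGF2R, 7 were lower, none was higher and 6 did not pass the test, with a median of -0.25, where 58.5% of all tested genes were lower with a median of -0.33. With median-ratio scaling 2 were lower and 5 higher, where all tested genes gave 24.6% and 26.6%. Nagpa, the enzyme that uncovers the mannose 6-phosphate tag, had -0.80 (adjusted p = 4.46e-04), and the Golgi adaptors Gga1 and Gga3 had -0.58 each (adjusted p = 4.05e-05 and 0.0209 in limma). With median-ratio scaling Gga1 had -0.23 (adjusted p = 0.00515) and Gga3, also at -0.23, lost its call (adjusted p = 0.301 in limma).

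**Figure D4:**
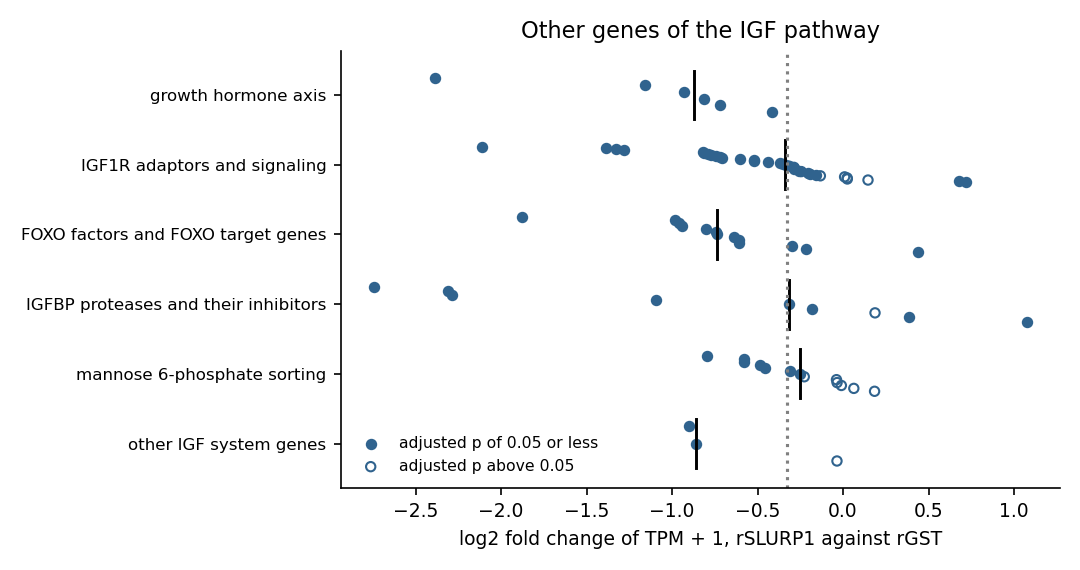
Log2 fold change of TPM + 1, rSLURP1 against rGST, for the tested genes of 6 lists of the IGF pathway, 1 point per gene; black lines are list medians and the dotted line is the median of all tested genes (-0.33). All genes of the growth hormone axis lie below that median, and IGF1R signaling genes are spread around it.

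Markers of cell types were examined beside these genes. Bulk RNAseq cannot tell apart fewer cells of a type and less RNA per cell. Of 13 mammary epithelial markers, 6 were listed at 0 in every library, Epcam among them. Cdh1 did not exceed 0.07 TPM, and the mean of Krt18 was 195.6 ± 4.13 TPM in rGST and 197.7 ± 1.68 TPM in rSLURP1 libraries (SD, n = 3 each). Krt18 had 0.02 as deposited (adjusted p = 0.712) and was called higher with median-ratio scaling, at 0.38 (adjusted p = 9.47e-05 in limma). Krt8, which passed the filter only through its rGST libraries, was at 1.56 ± 0.140 and 0.697 ± 0.163 TPM (SD, n = 3 each), a log2 difference of -0.60 (adjusted p = 0.00968) that was not called with median-ratio scaling (-0.41, adjusted p = 0.0571 in limma). Several defining epithelial markers were thus at or near 0 in a line labelled as mammary tumor cells. Of 14 fibroblast and mesenchymal markers, 10 were tested. As deposited 9 were lower with rSLURP1 and none was higher, with a median log2 fold change of -2.64. S100a4, the most abundant of the list, had -0.05 (adjusted p = 0.417 in limma). With median-ratio scaling 9 were lower and S100a4 was higher, at 0.31 (adjusted p = 0.00259 in limma). Among all tested genes 58.5% were lower as deposited, with a median of -0.33, and 24.6% were lower with median-ratio scaling. Col1a1 and Dpt passed the filter only through their rGST libraries, so their falls were built into the selection. The summed level of the list was 3896 to 4207 TPM with rGST and 2089 to 2273 with rSLURP1. The matrix proteoglycan Dcn, with -6.49 (adjusted p = 1.37e-08 in limma), Pdgfra, a growth factor receptor, with -1.85 (adjusted p = 4.36e-07), and the filament gene Vim, with -0.92 (adjusted p = 9.52e-06 in limma), moved with Igf1. Their part in the fall of Igf1 was not tested.

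Endothelial markers summed to 0.22 to 0.39 TPM with rGST and 0.18 to 1.33 with rSLURP1, with Kdr, Cldn5 and Emcn listed at 0, and none of the 8 passed the filter. The 9 immune markers summed to 3.66 to 4.2 TPM with rGST and 8.02 to 10.65 with rSLURP1. Nearly all of this was Cd68, a lysosomal protein (3.77 ± 0.265 against 9.60 ± 1.61 TPM, SD, n = 3 each, limma adjusted p = 1.90e-04), while Ptprc was at 0.01 TPM or less and Adgre1, Cd3e and Ncr1 were listed at 0. Of 12 proliferation genes, 10 were lower and 2 did not pass the test, with a median of -0.34 that lay at the -0.33 of all tested genes (58.5% lower). With median-ratio scaling 1 was lower and 2 were higher, where all tested genes gave 24.6% and 26.6%. Mki67 had -0.89 (adjusted p = 1.28e-04) and -0.55 with median-ratio scaling (adjusted p = 0.00255 in limma). Mcm3 had -0.55 (adjusted p = 0.00668) and lost its call with that scaling, at -0.20 (adjusted p = 0.254 in limma). Pcna had -0.15 (adjusted p = 0.0245) and turned to 0.21 (adjusted p = 0.00682 in limma). The part of proliferation in the level of the IGF genes was not tested.

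Among the genes whose log2(TPM + 1) ran most like Igf1 over the 6 libraries were Tpp1 and Ints10, with Pearson's r of 0.999 each. Those most like Igfbp4 were Taf5l, Pcdhgc3 and Tbccd1, each with r of 0.999 or more. These libraries share the treatment contrast, so r mostly reflects it, and r reached 0.95 in 2366 of the 8424 genes compared for Igf1 and in 3328 for Igfbp4.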

How the data were processed

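RNAseq of 6 libraries, 3 per treatment, was grouped by the sample labels. The submitters' processing notes name Cutadapt (1.18), STAR (2.5.2b), RSEM (1.3.3) and the mm10 genome, and the authors deposited TPM per gene with 1 column per library. The methods describe Smart-seq2, whereas the labels name a TruSeq mRNA kit. Depth per sample is unknown from TPM.

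From the deposited TPM, log2(TPM + 1) was fitted with limma (3.58.1, R 4.3.3; eBayes with trend) for 12301 genes, without a block, with Benjamini-Hochberg adjustment over all of them. The script was tested on simulated data with 200 changed genes and no shift of the others. That test does not cover a broad shift like the one seen here. Coordinates came from GENCODE M21 on GRCm38 (54079 of 54146 identifiers matched without version), where the methods name M12; promoter windows came from RefSeq and matched all 10 genes. Ratios and sums used TPM.

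The genes and lists were chosen with earlier results of these data known. Named from each list were up to 3 called genes farthest from the median change, a few fixed genes and the most abundant markers; some low markers and 1 gene similar to Igf1 are not reported here. Igf2bp2, Peg3, Airn, Ins1, Ins2, Col1a1, Dpt and the markers given as at or near 0 fall outside that rule and were chosen after their values were seen. Alternatives were a pseudocount of 0.1, other filters, scalings, no trend, the replicate block and each library left out.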

Additional observations from a re-analysis of the deposited data

How the results depend on the processing

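With median-ratio scaling and quantile normalization, 3029 and 2905 of all tested genes were called lower and 3274 and 3111 higher, in place of 7200 and 1065. Among the IGF genes both settings called 2 lower and 3 higher, in place of 4 and 1. In the gene lists they called 43 and 47 lower and 26 and 23 higher, in place of 77 and 6. Both settings move the median of all genes to about 0. Igf2r reversed to 0.18 and 0.19, and Igf1r lost its call at -0.18 and -0.11 (adjusted p = 0.185 and 0.371 in limma). Igfbp7 gained one at 0.34 and 0.42, and it ran from -0.046 without rGST replicate 1, with -0.037 without rSLURP1 replicate 3, to 0.097 without rSLURP1 replicate 2, with no call in any of these. Of 77 alternative values of the 6 tested genes, 69 had the direction and call of the value reported above. Igf1, Igfbp4 and Igfbp6 did so in every setting that tested them. Igf1 was not tested when a TPM of 1 was required in all 6 libraries, which left 4 IGF genes called; without a filter Igf2 was called too, giving 6.

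Leaving out 1 library at a time called 7561 to 7905 genes and 5 IGF genes each time, and moved the difference in the share of Igfbp4 in the IGFBP pool between -0.555 and -0.464 percentage points. A fit with a block for the replicate number called 7962 genes and 5 IGF genes, and no call of an IGF gene changed. Deviations from the treatment means correlated at -0.061 to -0.034 between same-numbered libraries and at 0.0075 to 0.048 between the others. Deviations of 3 libraries cancel within a treatment, which constrains these correlations. They therefore cannot show whether the numbers pair the libraries. Read depth is unknown, which limits what can be said of genes below 1 TPM.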
